A study of Homo sapiens with 3 samples.

Results

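Apolipoproteins are the proteins that coat lipid particles for transport through blood and lymph. The genes described here were APOA1, APOA2, APOA4, APOB, APOC1, APOC3, APOE, APOH and APOM, together with MTTP, which encodes the protein that loads lipid onto apolipoprotein B. They were picked out by gene symbol from the mRNA sequencing of 3 human hepatocellular carcinoma (HCC) cell cultures and make up 10 genes, set beside the 16149 genes listed in at least 1 library. Of the 10 genes, 9 were listed in at least 1 library, 7 were listed in every library and APOA2 was listed in none. They were selected on RPKM, that is, named with their levels in these same libraries known, so every level and ratio below is a description and none was tested.

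The 3 cultures were the parental line and a pair of its subclones, with 1 library each. All carry the HCCLM3 label, and the parent is annotated as having low metastatic ability, subclone 1 as having a higher ability directed to the lung, and subclone 2 as spreading to both the lung and the celiac lymph node. In the study's methods the parent is HCCLM3-R, the HCCLM3 line carrying red fluorescent protein, and its subclones are monoclonal lines, each grown from a single cell of a metastasis in a nude mouse. The methods give this parental line a high metastatic potential, unlike its label. Each subclone therefore stands for 1 clone, and neither the labels nor the methods name which monoclones were sequenced. RNA came from cells in culture without any treatment named in the labels. Levels were given as RPKM, which divides the reads of a gene by its length and by the library size. The values of a gene stood in ratios of whole reads, which gave the relative depth of the libraries. The absolute depth was an estimate from whole gene lengths near known transcript lengths. It came to 4488825, 4609696 and 4725150 reads for the parent, subclone 1 and subclone 2, and the reads below rest on it. Intervals are exact 95% intervals on these reads (Poisson for a level, Clopper-Pearson for a fold). They cover counting error only and compare libraries, not cell lines, because no line had a replicate library.

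Liver cells and enterocytes build triglyceride-rich lipoproteins around 1 molecule of apolipoprotein B, which the microsomal triglyceride transfer protein encoded by MTTP fills with lipid in the endoplasmic reticulum. Smaller apolipoproteins are then exchanged between particles. Apolipoprotein A-I is the main protein of high-density lipoprotein, and apolipoproteins C-I and C-III slow the hydrolysis and uptake of triglyceride-rich particles. Apolipoprotein E is the ligand through which remnants are taken up by receptors of the LDL receptor family. In the liver these genes depend on nuclear receptors, among them the hepatocyte nuclear factor HNF4.

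The RefSeq promoter table of GRCh38.p14 held 7 of the 10 genes, and APOA1, APOB and APOC3 were not in it. The promoters below are shown because MTTP and APOA4 were the genes of this table that lay over 2-fold above the parent in both subclones. MTTP also had an earlier start in the table, whose promoter held no match and is not shown. The MTTP start with matches is the one printed. Each is the 250 bases before an annotated start, read 5′ to 3′ on the strand of the gene, with capitals on the letters of a searched motif on either strand.
MTTP, second start, chr4:99574574-99574823, plus strand: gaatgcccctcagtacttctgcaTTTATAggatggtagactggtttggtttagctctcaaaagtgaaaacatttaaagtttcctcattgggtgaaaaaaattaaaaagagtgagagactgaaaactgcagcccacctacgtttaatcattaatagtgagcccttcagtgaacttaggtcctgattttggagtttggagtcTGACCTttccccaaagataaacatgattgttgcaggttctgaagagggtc
APOA4, chr11:116823305-116823554, minus strand: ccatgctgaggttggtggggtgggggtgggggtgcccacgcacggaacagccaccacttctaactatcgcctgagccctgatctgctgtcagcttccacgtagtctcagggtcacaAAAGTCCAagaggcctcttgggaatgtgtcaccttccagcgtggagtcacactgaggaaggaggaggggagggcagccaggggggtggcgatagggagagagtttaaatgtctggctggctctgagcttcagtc

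The letters searched, on both strands of the 300 bases from 250 before to 50 after a start, were AGGTCA for nuclear receptors, AAAGTCCA for HNF4 and TATAAA for the TATA box. AGGTCA was in 13.8% of the 35116 promoters of the table and, among the 10 promoters of these genes, in the MTTP promoter shown, where it ran in the opposite orientation 50 to 45 bases upstream. AAAGTCCA was in 1.14% of all promoters and lay 134 to 127 bases upstream of APOA4. TATAAA was in 11.5% of all promoters and in the MTTP promoter shown, 227 to 222 bases upstream in the opposite orientation. These are matches of letters chosen after the promoters had been seen, and binding was not measured.

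Within each library the levels ran from unlisted genes up to 42.3 RPKM (APOC1, parent), 36.6 RPKM (APOH, subclone 1) and 33.6 RPKM (APOH, subclone 2). APOH and APOC1 made up 93.1% of the summed RPKM of the parent, 64.7% of that of subclone 1 and 64.1% of that of subclone 2. The remaining genes together reached 5.34 RPKM for the parent, 39.3 RPKM for subclone 1 and 25.7 RPKM for subclone 2. That sum was higher in both subclones, with APOA4 as its largest part in subclone 1 (22.0 RPKM) and MTTP in subclone 2 (17.0 RPKM). For comparison, the median RPKM of all genes with a mean of at least 1 was 10.8, 10.9 and 11.2 for the parent, subclone 1 and subclone 2. In bulk RNA, fewer cells that express a gene and less of its RNA per cell cannot be told apart.

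**Figure D1:**
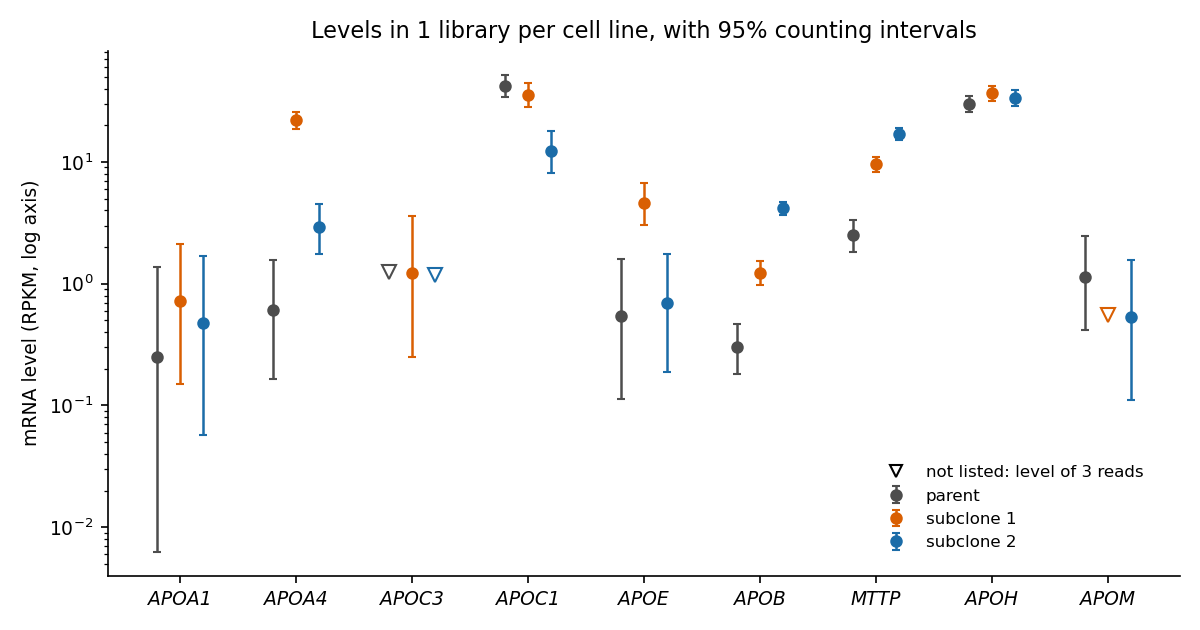
RPKM of the 9 listed genes (log axis) in the parent, subclone 1 and subclone 2, 1 library each, with 95% counting intervals as bars and open triangles at the level of 3 reads for a gene not listed. APOH stayed between 30.0 and 36.6 RPKM, APOB and MTTP were lowest in the parent and highest in subclone 2, and APOA4 and APOE peaked in subclone 1.

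APOB, the scaffold of very-low-density and low-density lipoprotein, occupies 21001429 to 21044073 on the minus strand of chromosome 2 (all gene coordinates are from GENCODE on GRCh38, while the submitters' notes on the RPKM name hg19). Its RPKM was 0.300 for the parent (0.180 to 0.468 from 19 reads), 1.23 for subclone 1 (0.975 to 1.53 from 80 reads) and 4.17 for subclone 2 (3.69 to 4.69 from 278 reads). The 3 intervals did not overlap, and the libraries ran from the parent through subclone 1 to subclone 2. APOB exceeded the parent 4.10-fold in subclone 1 (2.46 to 7.16) and 13.9-fold in subclone 2 (8.73 to 23.4). Subclone 2 exceeded subclone 1 by 3.39-fold (2.63 to 4.40). On the log2 scale with 0.1 RPKM added to both levels, which understates the change of low genes, the ratios over the parent were 1.73 and 3.42. With 1 RPKM added they were 0.78 and 1.99, so that the difference in subclone 1 was then under 2-fold.

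MTTP, whose product lipidates apolipoprotein B, occupies 99563761 to 99623999 on the plus strand of chromosome 4. Its RPKM was 2.50 for the parent (1.83 to 3.34 from 46 reads), 9.54 for subclone 1 (8.20 to 11 from 180 reads) and 17.0 for subclone 2 (15.2 to 18.9 from 328 reads). The reads of MTTP likewise shared a factor of 2, and their number rests on a length of 4093 bases, beside a transcript of 4092 bases. MTTP had the same order of libraries as APOB, again without overlap of the intervals. MTTP exceeded the parent 3.81-fold in subclone 1 (2.74 to 5.39) and 6.77-fold in subclone 2 (4.96 to 9.44), and subclone 2 exceeded subclone 1 by 1.78-fold (1.48 to 2.14). Per length, MTTP was 8.35 times APOB for the parent, 7.76 times for subclone 1 and 4.07 times for subclone 2. TRMT10A, a gene that overlaps MTTP on the opposite strand, had 3.77, 2.62 and 2.84 RPKM for the parent, subclone 1 and subclone 2, an order unlike that of MTTP. How reads of opposite strands were assigned is not given in the sources used here.

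The partner of the MTTP protein is the protein disulfide isomerase encoded by P4HB, which had 537, 695 and 687 RPKM in the parent, subclone 1 and subclone 2. It exceeded the parent 1.29-fold in subclone 1 and 1.28-fold in subclone 2, beside the 3.81 and 6.77 of MTTP. P4HB belongs to a list of 16 genes of lipoprotein assembly and secretion, of which 13 had a mean of at least 1 RPKM. None of the 13 differed 2-fold from the parent in either subclone, beside 6.72% of all genes in subclone 1 and 7.49% in subclone 2. Their median log2 ratios were 0.16 in subclone 1 and 0.32 in subclone 2, beside 0.00 and 0.04 over all genes. HSP90B1, a chaperone of the endoplasmic reticulum in the same list, had 610, 659 and 653 RPKM in the same order of libraries.

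APOA4, APOC3 and APOA1 lie side by side on chromosome 11q23, and APOA4 was the one of them with more than a few reads. APOA4 encodes a protein of chylomicrons and high-density lipoprotein that in humans is made mainly in the intestine, and it lies from 116820700 to 116823306 on the minus strand. Its RPKM was 0.610 for the parent (0.166 to 1.56 from 4 reads), 22.0 for subclone 1 (18.6 to 25.8 from 148 reads) and 2.90 for subclone 2 (1.77 to 4.48 from 20 reads). Subclone 1 stood far above both other libraries, and the interval of subclone 2 began just above the end of that of the parent. APOA4 exceeded the parent 36.0-fold in subclone 1, although the 4 reads of the parent leave this fold between 13.8 and 134. Subclone 2 stood 4.75-fold above the parent (1.59 to 19.1) and 7.59-fold below subclone 1 (4.74 to 12.8). The RPKM fixed the reads of APOA4 only up to a common factor of 4, which was set from its transcript length of 1473 bases, and its intervals rest on that length.

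APOA1, the gene of the main protein of high-density lipoprotein, lies from 116835751 to 116837950 on the minus strand and was near the limit of detection. Its RPKM was 0.248 for the parent (0.00629 to 1.38 from 1 read), 0.726 for subclone 1 (0.150 to 2.12 from 3 reads) and 0.472 for subclone 2 (0.0571 to 1.70 from 2 reads). The intervals overlapped, and no difference was detectable at this depth. APOC3, whose product inhibits lipoprotein lipase and the clearance of remnants, lies between them from 116829706 to 116833072 on the plus strand. It was listed in subclone 1 alone, at 1.22 RPKM (0.252 to 3.57, 3 reads). The exact intervals at 0 reads ended at 1.54 RPKM in the parent and 1.46 RPKM in subclone 2. No fold can be given for APOA1 or APOC3, since neither exceeded 3 reads in any library. The 3 reads of APOC3 rest on a transcript length of 541 bases.

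The genes that flank the cluster differed less from the parent in subclone 1 than APOA4 did. APOA5, the nearest apolipoprotein gene, was not listed in any library. ZPR1, listed under its older symbol ZNF259, had 37.7, 26.6 and 27.8 RPKM for the parent, subclone 1 and subclone 2. SIK3 on the other side had 6.93, 7.47 and 7.08 RPKM in the same order of libraries. Of all genes, 6.72% in subclone 1 and 7.49% in subclone 2 were at least 2-fold higher or lower than in the parent. Among the 10 flanking genes with a mean of at least 1 RPKM, 9 were within 2-fold of the parent in each subclone, near the share over all genes. The exceptions were SIDT2, with 3.24, 7.09 and 6.32 RPKM, which passed 2-fold upward in subclone 1, and TAGLN, with 1.84, 1.79 and 0.403 RPKM, which passed it downward in subclone 2. TAGLN reached the mean of 1 RPKM only through the libraries in which it was high, so it had to differ.

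APOE and APOC1 are neighbours on chromosome 19q13 and differed between the libraries in different ways. APOE encodes the remnant ligand and spans 44905754 to 44909393 on the plus strand. Its RPKM was 0.546 for the parent (0.113 to 1.60 from 3 reads), 4.61 for subclone 1 (3.01 to 6.76 from 26 reads) and 0.692 for subclone 2 (0.189 to 1.77 from 4 reads). Subclone 1 alone was high, and the intervals of the parent and subclone 2 overlapped over most of their length. APOE in subclone 1 exceeded the parent 8.44-fold (2.59 to 43.6) and subclone 2 by 6.66-fold (2.31 to 26.3). The fold of subclone 2 over the parent was 1.27, with an interval from 0.214 to 8.65 that allows a wide range of differences in either direction.

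APOC1, whose small product inhibits lipoprotein lipase and the cholesteryl ester transfer protein, lies from 44914247 to 44919349 on the plus strand. Its RPKM was 42.3 for the parent (33.9 to 52.1 from 88 reads), 35.5 for subclone 1 (28.0 to 44.5 from 76 reads) and 12.3 for subclone 2 (8.12 to 17.9 from 27 reads). Subclone 2 was low, with an interval apart from those of the other libraries, and the intervals of the parent and subclone 1 overlapped. APOC1 in subclone 2 stood 3.43-fold below the parent (2.21 to 5.49) and 2.89-fold below subclone 1 (1.84 to 4.66). The fold of subclone 1 over the parent was 0.841 (0.610 to 1.16). Of the 10 genes, APOC1 was the one that lay 2-fold or more below the parent among those with a mean of at least 1 RPKM. APOC1P1, the neighbouring pseudogene with a sequence close to that of APOC1, was listed in the parent alone, and reads shared by these copies are uncertain.

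Most genes around APOE and APOC1 stayed within 2-fold of the parent. TOMM40, which encodes a channel of the mitochondrial outer membrane and lies next to APOE, had 90.0, 60.1 and 62.6 RPKM for the parent, subclone 1 and subclone 2. NECTIN2, listed as PVRL2, had 59.5, 88.5 and 103 RPKM in the same order, and CLPTM1 had 69.7, 75.3 and 77.6 RPKM. APOC4 and APOC2, which follow APOC1 along the chromosome, were not listed in any library. Of the 10 flanking genes with a mean of at least 1 RPKM, none differed 2-fold from the parent in subclone 1, and ZNF296 alone did in subclone 2, with 2.36, 2.57 and 5.01 RPKM. Over all genes, 6.72% differed 2-fold in subclone 1 and 7.49% in subclone 2, so most genes of any kind stayed within it.

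**Figure D2:**
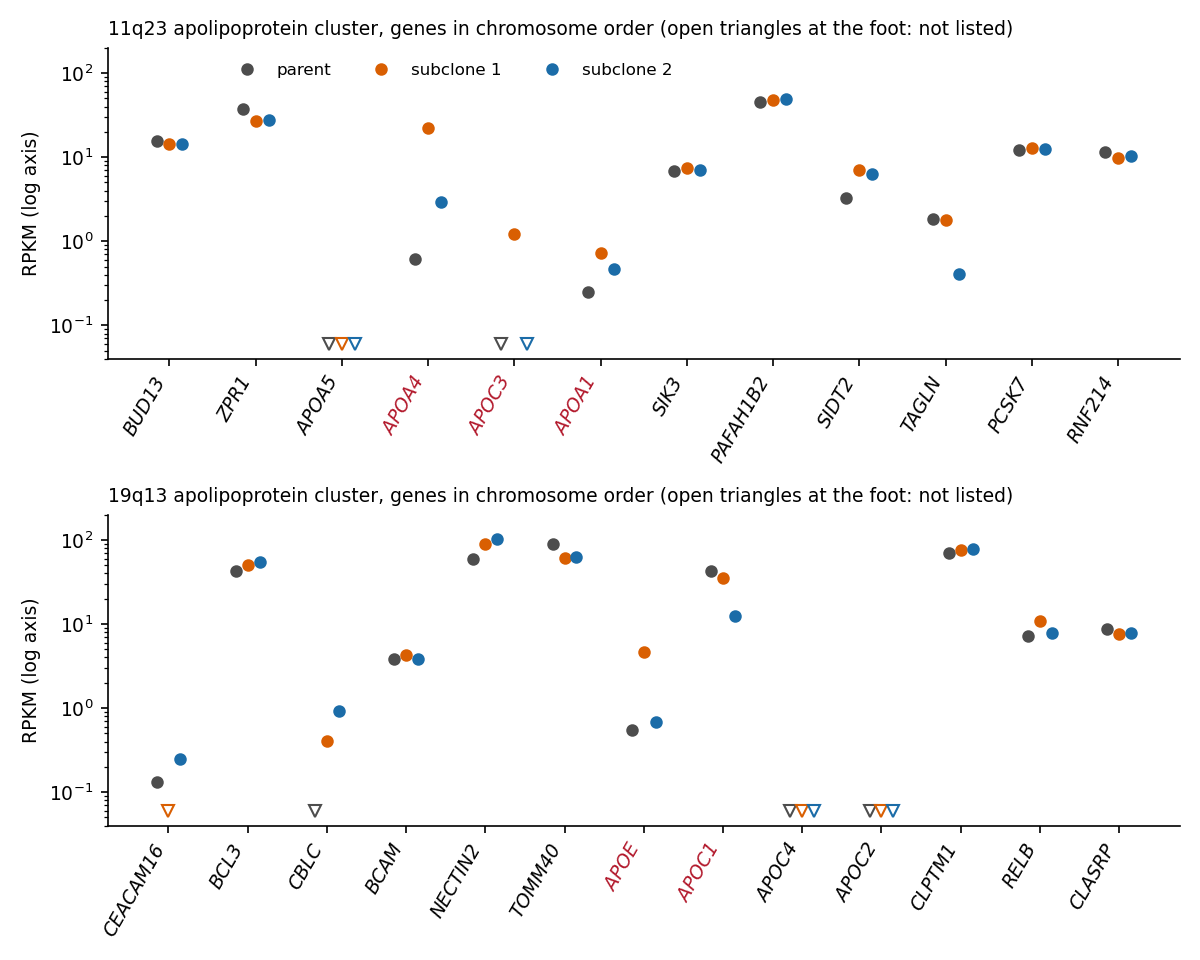
RPKM (log axis) of the genes along the 11q23 and 19q13 clusters in the 3 libraries, with genes in chromosomal order but not at their distances, and open triangles at the foot for genes not listed. APOA4 and APOE stood out in subclone 1 and APOC1 was low in subclone 2, while SIK3, TOMM40 and CLPTM1 beside them stayed within 2-fold.

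APOH encodes beta-2-glycoprotein I, a plasma protein that binds anionic phospholipids, and occupies 66212033 to 66256525 on the minus strand of chromosome 17. Its RPKM was 30.0 for the parent (25.6 to 35.0 from 164 reads), 36.6 for subclone 1 (31.7 to 41.9 from 205 reads) and 33.6 for subclone 2 (29 to 38.7 from 193 reads). All 3 intervals overlapped, and the folds over the parent of 1.22 in subclone 1 (0.986 to 1.5) and 1.12 in subclone 2 (0.903 to 1.39) had intervals that reached 1. Folds over the parent above 1.5 lay outside both intervals. APOH was thus the well-counted gene of the 10 that differed least, with APOC1 the highest of them in the parent, where their intervals overlapped, and APOH the highest in both subclones.

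APOM, whose product carries sphingosine-1-phosphate on high-density lipoprotein, occupies 31652416 to 31658210 on the plus strand of chromosome 6. Its RPKM was 1.13 for the parent (0.414 to 2.46 from 6 reads) and 0.536 for subclone 2 (0.110 to 1.57 from 3 reads). Subclone 1 had 0 reads, where the exact interval ended at 0.675 RPKM and the level of 3 reads was 0.549 RPKM. Against the level of 3 reads, subclone 1 was at least 2.05-fold lower, with the 6 reads of the parent taken as exact. With their counting error the interval of the fold ended at 0.827. The reads of APOM shared a factor of 3, set from a transcript length of 1184 bases, and this bound rests on it. BAG6, which overlaps APOM on the opposite strand, had 43.7, 44.8 and 45.1 RPKM in the parent, subclone 1 and subclone 2, and its reads cannot be told apart from those of APOM without strand. APOA2, the gene of the high-density lipoprotein protein apolipoprotein A-II, occupies 161222292 to 161223631 on the minus strand of chromosome 1 and was not listed in any library. At the 927 bases of its longest transcript, the level of 3 reads, taken as the limit for 0 reads, was 0.721 RPKM for the parent. It was 0.702 RPKM for subclone 1 and 0.685 RPKM for subclone 2.

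The ratios were summarised over the genes with a mean of at least 1 RPKM over the 3 libraries, which were 6 of the 10. APOH, APOC1 and MTTP had at least 1 RPKM in every library. APOA4, APOE and APOB passed only through the libraries in which they were high, so they had to differ. Neither their number nor a median that includes them says anything about the group. Over the parent, APOH, APOC1 and MTTP had log2 ratios of 0.28, -0.25 and 1.89 in subclone 1. In subclone 2 the same genes were at 0.16, -1.77 and 2.71. In subclone 1 over the parent, 4 of the 6 passed 2-fold upward (APOA4, APOE, MTTP and APOB) and none downward. Of the 11370 genes with that mean, 4.90% passed 2-fold upward and 1.82% downward, 6.72% in all. The median log2 ratio of the 6 was 1.81, with a range from -0.25 to 4.96, and that of all genes was 0.00. In subclone 2 over the parent, 3 passed 2-fold upward (APOB, MTTP and APOA4) and APOC1 passed it downward, beside 5.33% and 2.16% of all genes, 7.49% together. The median was 1.19, with a range from -1.77 to 3.42, and that of all genes was 0.04. Over the 9 listed genes, which add those of 6 reads or fewer, the medians were 1.73 in subclone 1 and 0.29 in subclone 2. These comparisons share the parent library.

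Between the subclones, APOB passed 2-fold upward in subclone 2 over subclone 1 and APOA4, APOE and APOC1 passed it downward, beside 1.42% and 1.39% of all genes, 2.81% together. The median log2 ratio was -0.82, with a range from -2.88 to 1.68, and that of all genes was 0.03, while over the 9 listed genes the median was -0.53. MTTP stayed under 2-fold, at 1.78-fold, and the genes fell on both sides. APOH was at 0.918-fold (0.751 to 1.12), with a log2 ratio between -0.17 and 0.00 over the alternatives, and the other 5 genes kept their direction under each of them.

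**Figure D3:**
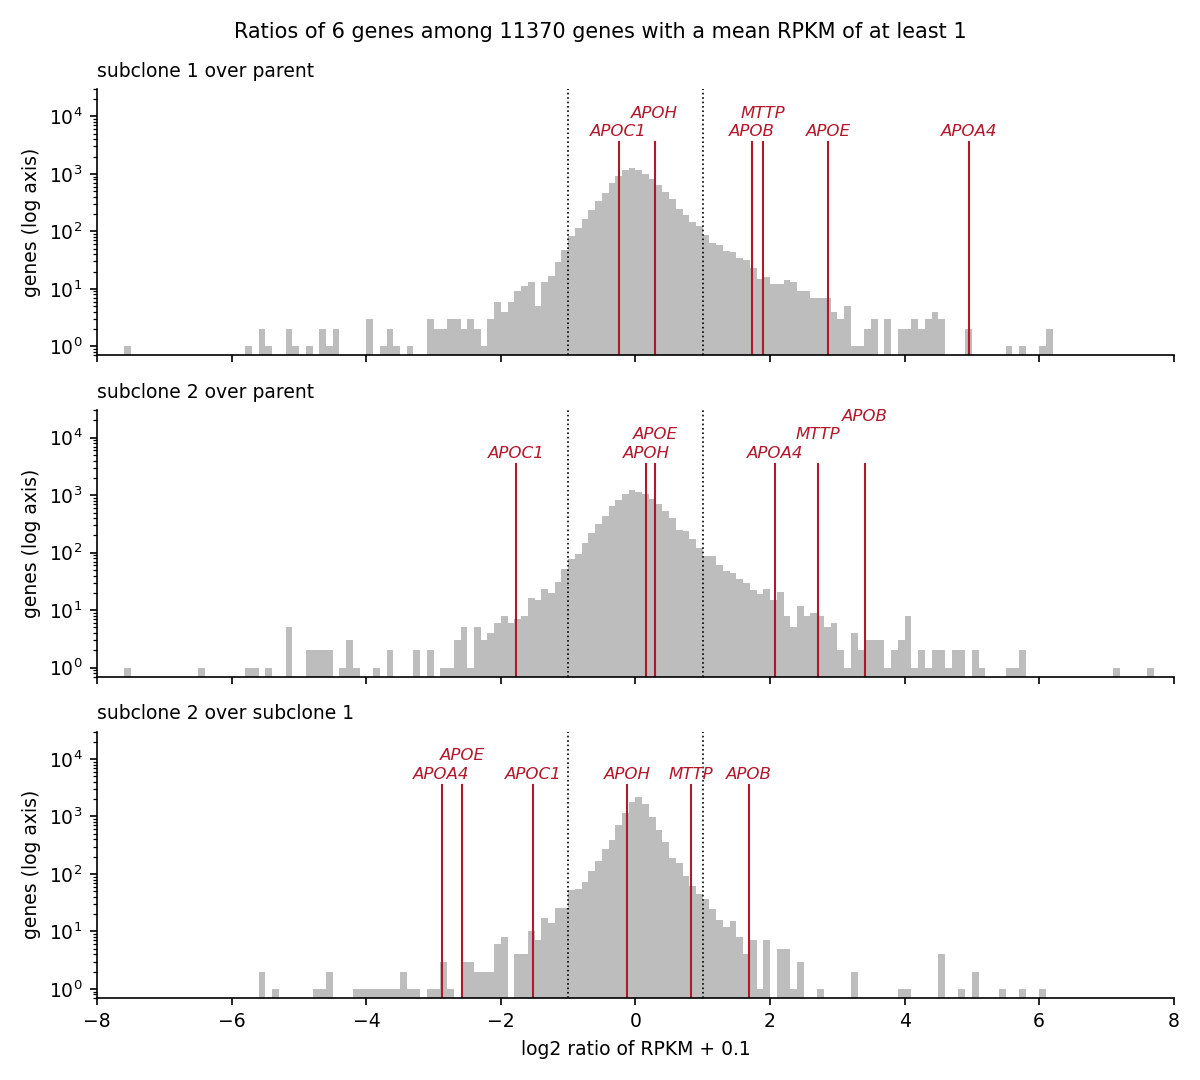
Log2 ratios, on RPKM + 0.1, of the 6 genes with a mean of at least 1 RPKM (red lines) over the histogram of all 11370 genes (grey, number of genes on a log axis) for each pair of libraries, with 2-fold as dotted lines. APOB and MTTP lay above 0 in all 3 comparisons, APOA4 and APOE lay at 4.96 and 2.87 in subclone 1 over the parent and at -2.88 and -2.57 between the subclones, and APOC1 lay at -1.77 in subclone 2 over the parent.

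Genes that act with the apolipoproteins are described here from lists of textbook genes drawn up with earlier results of these data known. Beside the counts below, 4.90% of all genes passed 2-fold upward over the parent in subclone 1 and 1.82% downward. In subclone 2 these shares were 5.33% and 2.16%. List genes with a library under 1 RPKM passed the mean only through libraries in which they were high, so they had to differ. ABCG1, LIPG, NR5A2 and PROX1 were among them. Counts and medians that include such genes say nothing about their lists. Of 16 other apolipoprotein genes, 7 had a mean of at least 1 RPKM, and 1 of these passed 2-fold upward over the parent in subclone 1 and none in subclone 2. The median log2 ratios of the list were 0.43 and 0.56. The gene past 2-fold was APOL1, an apolipoprotein of high-density lipoprotein that lyses trypanosomes, with 51.5, 121 and 92.6 RPKM in the parent, subclone 1 and subclone 2. CLU, which encodes the extracellular chaperone clusterin (apolipoprotein J), was the most abundant of them, with 177, 178 and 261 RPKM. APOL1 was therefore higher than any of the 10 genes in every library, and so was CLU.

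Of 19 receptors and lipid exporters, 15 had a mean of at least 1 RPKM, and in each subclone 2 of them passed 2-fold upward over the parent and none downward, with list medians of 0.21 and 0.18. LRP1, a receptor for remnants that carry apolipoprotein E, had 16.2, 35.4 and 39.4 RPKM in the parent, subclone 1 and subclone 2. CD36, a fatty acid receptor, had 3.39, 7.66 and 3.85 RPKM and stood high in subclone 1 only, and ABCG1, an exporter of cholesterol to high-density lipoprotein, had 0.780, 1.17 and 2.16 RPKM and stood highest in subclone 2. SCARB1, the high-density lipoprotein receptor, was abundant and level at 183, 198 and 187 RPKM.

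Of 15 plasma enzymes and regulators, 7 had a mean of at least 1 RPKM, and in each subclone 2 of them passed 2-fold upward over the parent and 1 downward, with list medians of 0.17 and 0.21. LIPC, the hepatic lipase, had 14.1, 30.1 and 32.6 RPKM, and ANGPTL4, an inhibitor of lipoprotein lipase, had 10.3, 24.4 and 25.5 RPKM in the parent, subclone 1 and subclone 2. LIPG, the endothelial lipase, which hydrolyses phospholipids of high-density lipoprotein, ran the other way with 2.80, 0.314 and 0.409 RPKM. LIPG stood 8.90-fold below the parent in subclone 1 and 6.84-fold below it in subclone 2.

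Of 25 transcription regulators of apolipoprotein genes, 19 had a mean of at least 1 RPKM. In subclone 1, 5 of them passed 2-fold upward over the parent and 1 downward, and in subclone 2, 7 passed it upward and none downward. NR5A2 and PROX1, counted here, had a library under 1 RPKM and so had to differ. The list medians were 0.20 and 0.45, beside 0.00 and 0.04 over all genes. CREB3L3, a liver and intestine factor that activates APOA4, had 9.48, 30.6 and 48.0 RPKM in the parent, subclone 1 and subclone 2, or 3.23-fold (2.60 to 4.04) and 5.06-fold (4.12 to 6.26) over the parent. Its order of libraries was that of APOB and MTTP, and unlike that of APOA4. NR1H4, the bile acid receptor FXR, had 1.61, 10.8 and 9.34 RPKM, or 6.71-fold (3.32 to 15.4) and 5.81-fold (2.85 to 13.4) over the parent. NR5A2, a nuclear receptor of the liver also known as LRH-1, had 0.617, 1.59 and 2.60 RPKM. PROX1, a corepressor of HNF4A, had 3.17, 0.773 and 2.47 RPKM and stood 4.11-fold below the parent in subclone 1. HNF4A, named here because its motif was searched above, had 11.7, 11.9 and 16.0 RPKM, within 2-fold of the parent.

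**Figure D4:**
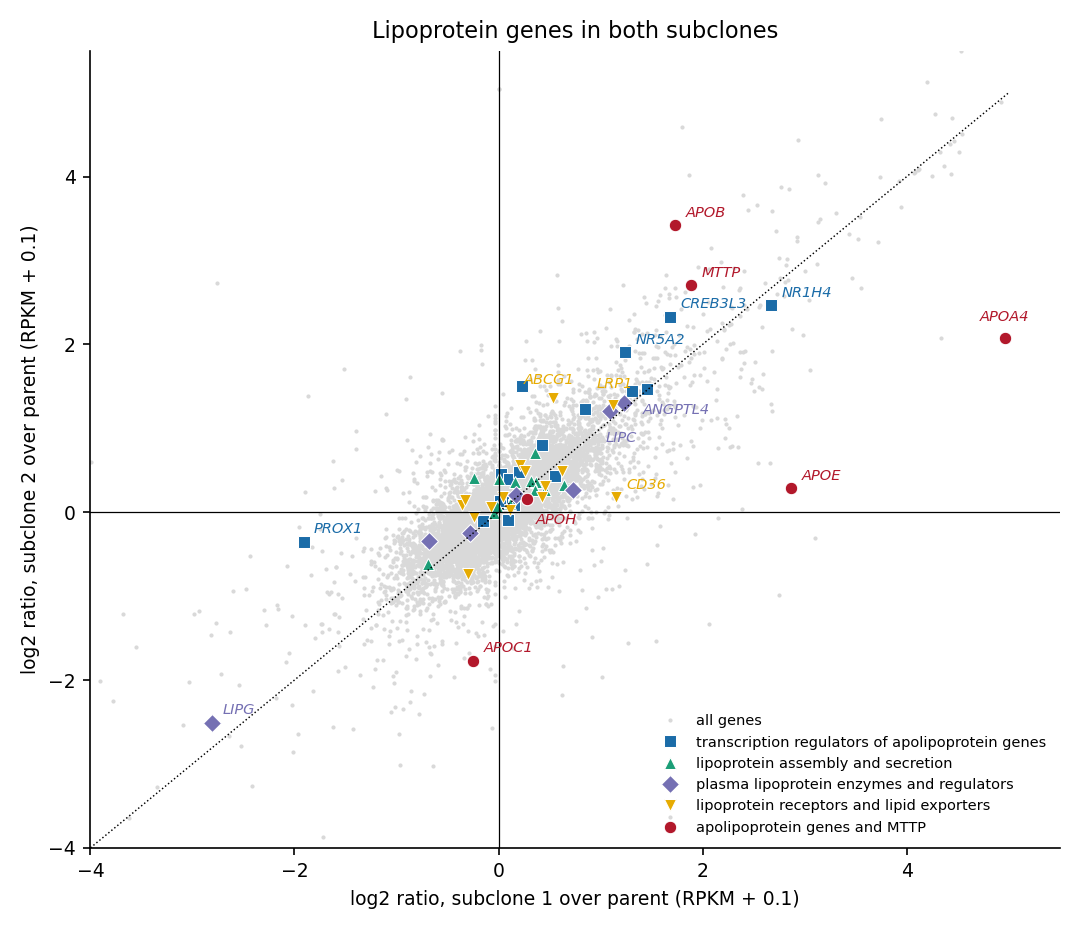
Log2 ratio over the parent, on RPKM + 0.1, of subclone 1 (x axis) and subclone 2 (y axis) for the 6 genes with a mean of at least 1 RPKM (circles), the lists of genes around them and all genes (grey, 38 of 11370 lie outside the axes), with equal ratios on the dotted line. APOA4 and APOE lay far below the line and APOB above it, CREB3L3 and NR1H4 were high on both axes and LIPG was low on both.

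Markers of cell types that express apolipoproteins were read beside these values, with the same shares over all genes as for the lists above. The limit for genes with a library under 1 RPKM also holds here, for FGG and COL3A1 among others. All 12 hepatocyte markers were listed in at least 1 library, with a summed level of 26.3, 122 and 104 RPKM for the parent, subclone 1 and subclone 2. However, the defining marker TTR had only 0, 0 and 1 reads in these libraries. SERPINA1 had 1, 4 and 1 reads and HP had 0, 1 and 0 reads in the same order. ALB, the albumin gene, was the most abundant of the 12 markers in both subclones, with 2.46, 49.5 and 68.8 RPKM. TF, the transferrin gene, had 5.71, 30.3 and 5.88 RPKM, an order of libraries like that of APOE. RBP4, the plasma retinol carrier, was lower in both subclones, with 6.87, 1.15 and 3.60 RPKM. FGB and FGG, which encode fibrinogen chains, were lowest in the parent, with 1.66, 14.5 and 5.60 RPKM and 0.126, 4.80 and 3.60 RPKM. Of the 9 with a mean of at least 1 RPKM, 5 passed 2-fold upward and 1 downward in subclone 1. In subclone 2, 4 passed it upward and none downward. The list medians were 2.39 and 0.80, and not all of these genes were higher than in the parent. In subclone 2, TF at 1.03-fold (0.637 to 1.67) and AMBP, another marker, at 1.27-fold (0.616 to 2.66) had intervals that reached 1.

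Of 12 enterocyte markers, 9 were listed, with summed levels of 85.9, 241 and 270 RPKM in the parent, subclone 1 and subclone 2. CDX1, SI and LCT, of which the last pair encode brush border enzymes, were not listed, while the intestinal factor CDX2 was listed in every library with 1.49, 2.18 and 3.14 RPKM. VIL1 had 5.49, 7.63 and 11.7 RPKM and MUC13 had 8.38, 21.3 and 38.3 RPKM in the same order, so that all 3 genes were lowest in the parent and highest in subclone 2. CDH17 had 53.8, 123 and 165 RPKM and ANPEP had 16.5, 85.6 and 50.6 RPKM. ANPEP peaked in subclone 1, as did APOA4, and CDH17 in subclone 2. Of the 5 with a mean of at least 1 RPKM, 3 passed 2-fold upward over the parent in subclone 1 and all 5 in subclone 2. Of 14 macrophage markers, 6 were listed, and CD68, with 75.3, 112 and 99.6 RPKM, made up most of their summed 76.6, 116 and 101 RPKM. The defining macrophage markers C1QA, C1QB, C1QC, MARCO, MRC1 and CSF1R were not listed in any library, and neither of the 2 with a mean of at least 1 RPKM differed 2-fold from the parent. Of 12 fibroblast and stellate cell markers, 7 were listed, with sums of 15.8, 31.2 and 24.5 RPKM, and PDGFRA, PDGFRB and ACTA2 were not listed. Of the 3 with a mean of at least 1 RPKM, 2 passed 2-fold upward in each subclone and 1 passed it downward in subclone 2. LUM had 10.1, 24.0 and 21.0 RPKM and COL3A1 had 4.42, 2.21 and 0.463 RPKM. The part of these cell type genes in the levels of the apolipoprotein genes was not tested.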

How the data were processed

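RNA of HCCLM3 cultures was extracted with Trizol and sequenced from Illumina TruSeq libraries, 1 per culture. The authors deposited RPKM values per gene, by Entrez number and symbol, for genes above 0. The submitters' processing notes name hg19, while the aligner, counting tool, annotation and strand handling are not given in the sources used here. Genes absent from a library were taken as 0.

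Ratios were log2 of (RPKM + 0.1), over genes with a mean of at least 1 RPKM (11370 of 16149), and 2-fold counted as higher or lower. Folds are ratios of RPKM. With 1 library per line no test between lines is possible. Ratios of library totals came from 523 genes of equal reads between the parent and subclone 1 and 498 between the parent and subclone 2. The size of the totals came from whole gene lengths, with the multiple chosen by nearness to GENCODE transcript lengths. Reads per gene came from the smallest length that made whole reads in every library within 0.001 and lay from 0.5 times the median to 1.5 times the longest GENCODE transcript. Otherwise a multiple within 10% of a transcript was taken. This rule was revised after values were seen. It resolved 98.0% of the 11370 genes, and 68.2% of 1351 low genes had a length within 10% of a transcript, against 27.4% with doubled and 20.6% with halved totals. The multiple of the totals was chosen by this same share, so the comparison is no separate check of the depth. The step was also run on data simulated with these same lengths and totals, which cannot check the choice of either. A count of 0 was taken to allow 3 reads.

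The 10 genes and the 11 lists beside them were chosen with earlier results of these data known. All 10 are named. From each list, up to 4 genes at least 2-fold different from the parent and up to 2 with the highest mean are named, as are genes next to a cluster. HNF4A, TTR, SERPINA1, HP, the unlisted markers, TRMT10A, BAG6 and APOC1P1 were named for their values or place after these were seen. Genes resembling the median of the 6 with a mean of at least 1 RPKM were sought by distance over both ratios. Promoter sequences are RefSeq (GRCh38.p14). A comparison of protein sequences was planned and not made here, and 1 motif and 1 regulator are not reported here. Alternatives were pseudocounts of 0.01 and 1, no filter or a mean of at least 5 RPKM, 1.5-fold, and scaling by sum, upper quartile, median, ACTB or GAPDH. Python 3.11.15, numpy 2.4.6, pandas 2.3.3, scipy 1.17.1 and matplotlib 3.10.9 were used.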

Additional observations from a re-analysis of the deposited data

How the results depend on the processing

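The median log2 ratio of the 6 genes in subclone 1 over the parent was 1.81 and went to 1.18 with a pseudocount of 1 and to 1.09 with a mean of at least 5 RPKM, and over all settings it ran from 1.09 to 1.96. The number at least 2-fold different there went from 4 to 7 with no filter and to 2 with a mean of at least 5 RPKM. Between the subclones it went from 4 to 2 with a mean of at least 5 RPKM. A stricter filter leaves fewer genes and no filter admits those of few reads. In subclone 2 over the parent the median ran from 0.29 with no filter to 1.28. Of 126 ratios of the 6 genes under 7 alternatives, 123 stayed within the 95% interval of their value and 3, all of APOB with a pseudocount of 1, did not, with 0 reversed. These intervals are wide for genes of few reads. APOE in subclone 1 over the parent counted as staying, though it went from 2.87 to 1.86 with a pseudocount of 1. A reversal was counted only where the interval of the fold excluded 1. Genes at least 2-fold different among all genes went from 764 to 464 with a pseudocount of 1, 2407 with no filter, 304 with a mean of at least 5 RPKM and 2165 at 1.5-fold in subclone 1 over the parent. The same settings took 852 to 530, 2494, 346 and 2274 in subclone 2 over the parent, and 319 to 157, 1744, 89 and 1007 between the subclones. Scaling by ACTB moved the median of all genes by -0.13 in subclone 1 over the parent and took the share of higher genes from 72.9% to 57.8%, and between the subclones that share was 50.5%, against 64.0% under ACTB and 62.6% under GAPDH scaling. Depth limits APOA1, APOC3, APOM, APOE and APOA4 most, with 6 reads or fewer in at least 1 library. No paired analysis was possible because there are no replicates, and no library could be left out for the same reason.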

Other observations

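Among 6009 other genes with a mean of at least 10 RPKM, the 5 nearest to the median pattern of the 6 genes, MTTP among them (log2 ratios of 1.81 and 1.19 over the parent), were APLP1, MFI2, CTSO, HLA-B and C1R, at distances from 0.03 to 0.16. APLP1, an amyloid precursor-like protein, had 4.64, 16.6 and 10.5 RPKM for the parent, subclone 1 and subclone 2. C1R, a complement protease made by the liver, was the most abundant of the 5, with 29.7, 93.8 and 70.1 RPKM. The median pattern was not the pattern of any single gene of the 6, since each differed from it by over 1 on the log2 scale in at least 1 subclone. The median pattern also includes APOA4, APOE and APOB, which passed the filter only through libraries in which they were high.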
